A study of Oryza sativa with 6 samples.

Results

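The 9 genes described here carry the cytokinin signal in rice, from its perception at the membrane to transcription in the nucleus. They comprise the histidine kinase receptors HK3, HK4 and HK5, the phosphotransfer proteins AHP1 and AHP2, and the type-B response regulators ORR1, ORR2, ORR3 and ORR4. They were chosen by symbol or synonym, with earlier results of these data known. On the array, 11 of the 57381 probe sets report them, out of 17905 genes with a probe set of their own. Leaf RNA of rice (Oryza sativa) var. PB1, from the 3rd and 4th leaf counted from the flag leaf, was hybridized to 6 Affymetrix arrays. The 3 MADS29OX samples came from plants with an OsMADS29 cDNA transgene under a ubiquitin promoter (pUBI), active in most tissues. The 3 wild-type (WT) samples came from PB1 plants without it. The submitters call the samples of each group biological replicates. The sources used here do not say whether the 3 MADS29OX samples are separate transformation events or separate plants. The p-values therefore set the group difference against the spread between these samples only.

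Cytokinins are adenine-derived hormones that promote cell division and delay leaf senescence. They bind the CHASE domain of membrane-bound histidine kinases, which start a multistep phosphorelay. The phosphate passes from the receptor to a small histidine phosphotransfer protein that moves between cytoplasm and nucleus, and from there to the response regulators. Type-B regulators have a Myb-like DNA-binding domain and switch on target genes. Type-A regulators lack this domain, are themselves rapidly induced targets, and dampen the relay.

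OsMADS29, the overexpressed gene, had signals of 2016, 1788 and 3590 in MADS29OX leaves, against 6.70, 6.37 and 6.64 in WT leaves. Signals are linear probe set intensities, and values below a floor of 16 were raised to 16, so the WT leaves have only an upper bound and OsMADS29 was at least 147-fold higher in MADS29OX leaves (log2 fold change 7.20, standard error 0.26, adjusted p = 0.000139 from limma). Correlations of log2 signals over all tested probe sets were 0.936 to 0.969 between MADS29OX arrays, 0.992 to 0.997 between WT arrays and 0.877 to 0.899 between the groups. Leaf markers were present on all arrays, with 7 of 8 above the floor and a summed signal of 31876 to 42053 in MADS29OX leaves, against 28089 to 28932 in WT leaves. The list did not move one way, since the chlorophyll-binding protein genes CAB2R and RCABP69 were called higher and the photosystem I gene PSAG was called lower (log2 fold change -1.05, adjusted p = 0.00474 from limma). All 5 root markers lay at the floor on every array, as did the meristem marker KN1. The other meristem marker, FON1, was above the floor on every array, though weak. Its signals were 19.53 to 41.02 in MADS29OX leaves, against 18.97 to 26.36 in WT leaves (log2 fold change 0.21, adjusted p = 0.632 from limma). Of 13 markers listed for the developing flower, 10 lay at the floor. The list summed to 232 to 366 in MADS29OX leaves, against 616 to 648 in WT leaves. Most of this sum came from MADS18, which entered the list through the synonym MADS2. MADS18 had signals of 201, 258 and 139 in MADS29OX leaves, against 509, 479 and 487 in WT leaves. MADS16 was also lower, at 28.4, 38.8 and 23.0 in MADS29OX leaves, against 71.7, 68.5 and 67.0 in WT leaves. The 6 vascular and phloem markers summed to 261 to 296 in MADS29OX leaves, against 352 to 405 in WT leaves. On at least 1 array 5 of them were above the floor, SUS1 only in MADS29OX replicate 1 (16.8) and SWEET14 only in WT replicate 2 (17.6). SUT1 alone was called lower and 0 were called higher. SUT1 had signals of 42.1, 26.7 and 39.3 in MADS29OX leaves, against 98.4, 84.4 and 73.9 in WT leaves (log2 fold change -1.27, adjusted p = 0.00848 from limma). Of 8 seed markers, 6 lay at the floor, and the list summed to 213 to 248 in MADS29OX leaves, against 263 to 269.9 in WT leaves. The part of these marker differences in the results below was not tested.

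Of the 9 signalling genes, HK5 alone was called lower in MADS29OX leaves and 0 were called higher, a call being an adjusted p of at most 0.05 in limma and a change of at least 2-fold. Over all 10045 tested genes the same rule called 5.03% lower and 5.05% higher. Without the fold limit, 4 of the 9 genes were lower (HK4, HK5, AHP2 and ORR4) and 0 were higher, against 15.1% and 11.4% of all tested genes. In the same 4 genes every MADS29OX signal lay below every WT signal, an arrangement that 26.5% of all tested genes showed, and 23.6% showed the opposite one. The groups overlapped in HK3, AHP1, ORR1, ORR2 and ORR3. The median log2 fold change was -0.18 over the 9 genes and -0.01 over all tested genes. Of the 9, 6 lay below 0, ORR3 among them at only -0.01, as did 51.3% of all tested genes. Each step of the relay therefore held at least 1 gene that was lower at this adjusted p and at least 1 that did not pass it. In leaf RNA of mixed cells, fewer cells of a type and less RNA per cell cannot be told apart.

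**Figure D1:**
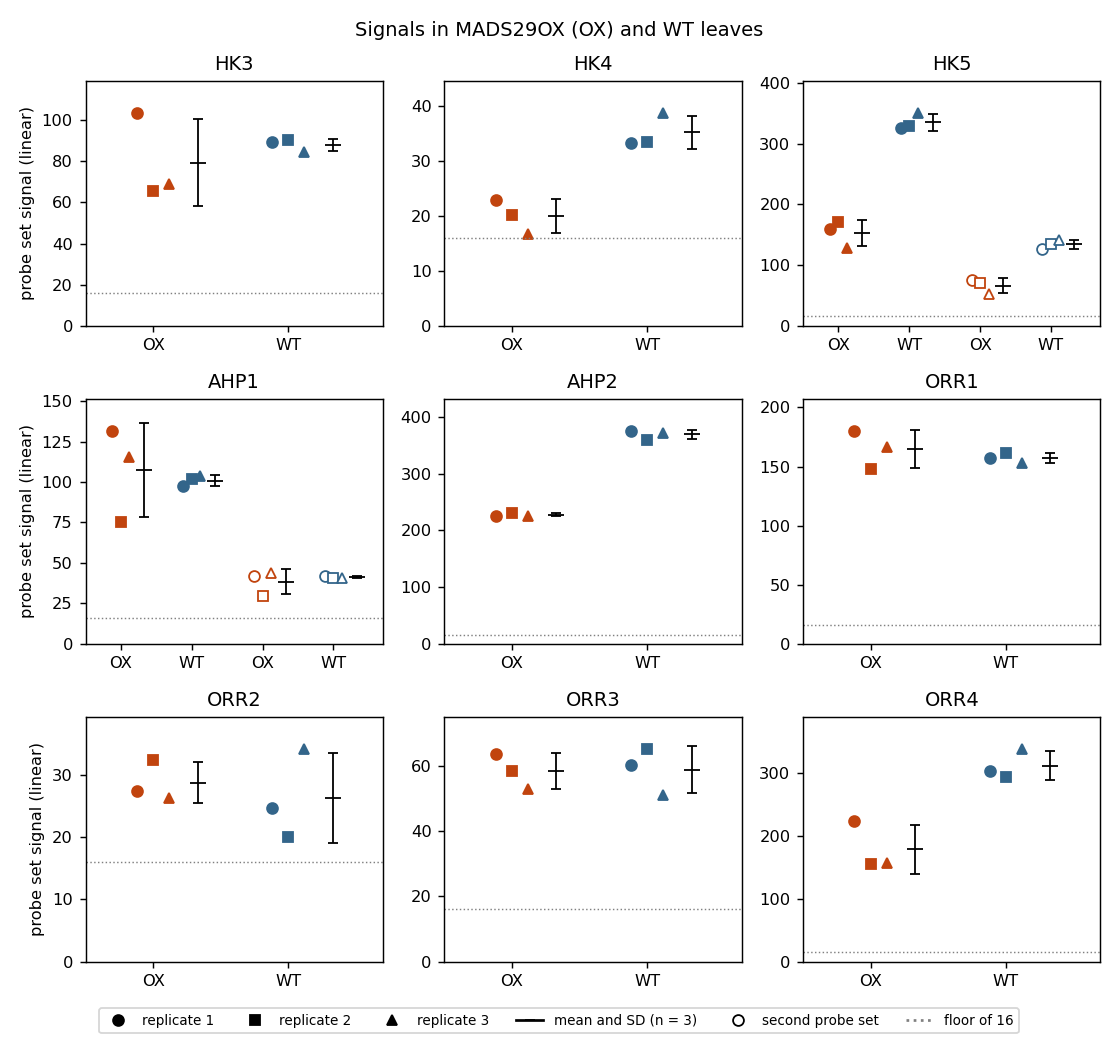
Linear probe set signals of the 9 cytokinin signalling genes in the 3 MADS29OX and the 3 WT leaf samples, with the group mean and SD, open symbols for a second probe set of the same gene and a dotted line at the floor of 16. In HK4, HK5, AHP2 and ORR4 all MADS29OX points lie below all WT points, and in the other 5 genes the groups overlap.

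Of the receptors HK3, HK4 and HK5, HK5 was called lower, HK4 passed the adjusted p only, and HK3 passed neither limit. HK5 (LOC4348447, also OHK3) had signals of 159.5, 171 and 129 in MADS29OX leaves, against 326, 329 and 351 in WT leaves. All 3 MADS29OX samples were low, and the highest of them was well under the lowest WT sample. The means were 153 ± 22.0 in MADS29OX leaves and 336 ± 13.6 in WT leaves (SD, n = 3 each), so that MADS29OX leaves held 45.6% of the WT signal. The log2 fold change was -1.14 (standard error 0.13, 95% interval -1.45 to -0.83, adjusted p = 0.00238 from limma), a 2.21-fold lower level. A second probe set of HK5 gave 74.9, 70.1 and 51.7 in MADS29OX leaves, against 126, 135 and 142 in WT leaves. It also separated the groups, and its limma fit gave a log2 fold change of -1.05 with a standard error of 0.16 and an adjusted p of 0.00641. The first of these probe sets is of a class that can hybridize to several transcripts, and the second is not. Only 4.15% of all tested genes had as low a log2 fold change as HK5.

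HK4 (LOC4333916, also OHK4) is a related receptor and had signals of 23.0, 20.1 and 16.8 in MADS29OX leaves, against 33.4, 33.6 and 38.8 in WT leaves. The groups did not overlap, but the lowest MADS29OX sample was just above the floor of 16. The log2 fold change was -0.83 (standard error 0.14, 95% interval -1.17 to -0.49, adjusted p = 0.00951 from limma), with means of 19.9 ± 3.09 in MADS29OX leaves and 35.3 ± 3.08 in WT leaves (SD, n = 3 each). The 1.78-fold lower level missed the fold limit. This near the floor, adding 16 to all signals in place of the floor brought the log2 fold change of HK4 to -0.51 with an adjusted p of 0.0660.

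HK3 (LOC9271913, also OHK2) had signals of 104, 65.4 and 69.0 in MADS29OX leaves, against 89.3, 90.3 and 84.8 in WT leaves. MADS29OX replicate 1 was above all WT samples and the other 2 were below all of them. The log2 fold change was -0.18 (standard error 0.19, 95% interval -0.64 to 0.28, adjusted p = 0.514 from limma), so that a decrease of the size seen in HK5 lay outside the interval and a moderate change in either direction did not. One array decided this result: without MADS29OX replicate 1 the log2 fold change of HK3 was -0.39 with an adjusted p of 0.0219.

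Of the phosphotransfer proteins AHP1 and AHP2, which shuttle the phosphate from the receptors to the nucleus, only AHP2 passed the adjusted p. AHP2 (LOC4347886, also OHP2) had signals of 226, 231 and 226 in MADS29OX leaves, against 375, 360.1 and 372 in WT leaves. The groups did not overlap, with means of 227 ± 2.76 in MADS29OX leaves and 369 ± 7.91 in WT leaves (SD, n = 3 each). On the log2 scale the SD of AHP2 was 0.0175 in MADS29OX leaves and 0.0311 in WT leaves, each the smallest among the main probe sets of the 9 genes. The log2 fold change was -0.70 (standard error 0.07, 95% interval -0.87 to -0.53, adjusted p = 0.00166 from limma), the smallest adjusted p of the 9 genes. MADS29OX leaves held 61.6% of the WT signal of AHP2, a 1.62-fold lower level that is under the fold limit.

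AHP1 (LOC4346300, also OHP1) had signals of 132, 75.2 and 115 in MADS29OX leaves, against 97.3, 102 and 104 in WT leaves. The MADS29OX samples lay on both sides of a narrow WT range. The means were 107 ± 29.0 in MADS29OX leaves and 101 ± 3.26 in WT leaves (SD, n = 3 each), and the log2 fold change was 0.05 (standard error 0.21, 95% interval -0.47 to 0.57, adjusted p = 0.879 from limma). A second probe set of AHP1 gave 42.0, 29.3 and 44.0 in MADS29OX leaves, against 42.1, 40.8 and 40.9 in WT leaves. Its log2 fold change of -0.12 (95% interval -0.54 to 0.29, adjusted p = 0.624 from limma) had the opposite sign, and MADS29OX replicate 2 was the lowest array in both probe sets.

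**Figure D2:**
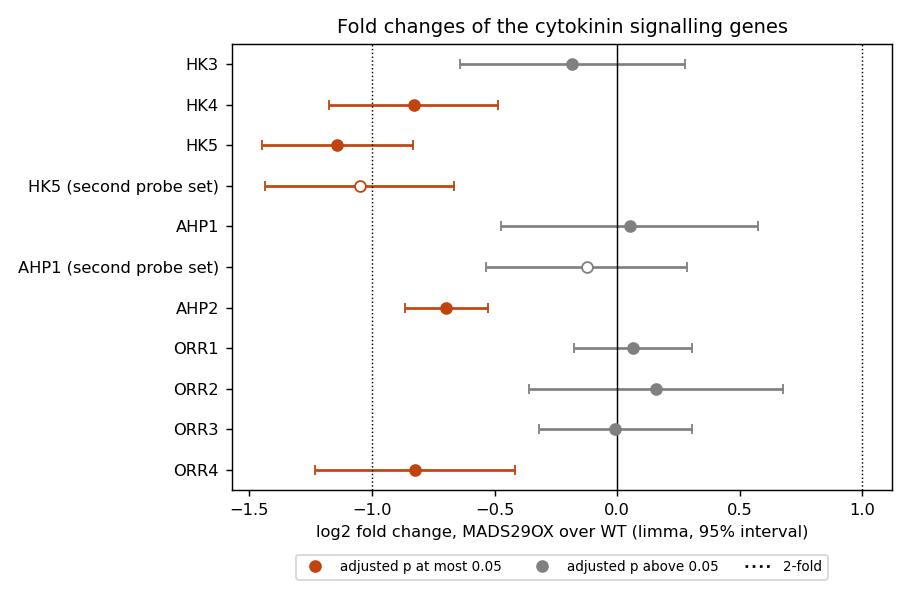
Log2 fold change (MADS29OX over WT) of each probe set of the 9 genes with its 95% interval from limma, open symbols for a second probe set, coloured where the adjusted p was at most 0.05, and dotted lines at 2-fold. HK5 lies past the lower line at -1.14 and -1.05, whereas HK4 at -0.83, ORR4 at -0.82 and AHP2 at -0.70 lie between that line and 0.

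Among the type-B regulators, which act as DNA-binding activators at the end of the relay, only ORR4 passed the adjusted p. ORR4 (LOC4328516, also RR24), known from rice mutants for a role in meiosis, had signals of 224, 155 and 157 in MADS29OX leaves, against 304, 294 and 338 in WT leaves. MADS29OX replicate 1 stood above the other 2 and still below every WT sample. The means were 179 ± 39.0 in MADS29OX leaves and 312 ± 23.2 in WT leaves (SD, n = 3 each), a 1.77-fold lower level. The log2 fold change was -0.82 (standard error 0.17, 95% interval -1.23 to -0.42, adjusted p = 0.0170 from limma). This adjusted p depended on the number of WT arrays, and was 0.0646, 0.0593 and 0.0733 for ORR4 without WT replicates 1, 2 and 3.

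ORR1 (LOC4332111, also RR21) had signals of 180.1, 148 and 167 in MADS29OX leaves, against 157, 161 and 153 in WT leaves. The MADS29OX samples again lay on both sides of the WT range, and the log2 fold change was 0.06 (95% interval -0.17 to 0.30, adjusted p = 0.662 from limma). ORR2 (LOC4340320, also RR22), known from a salt-tolerant rice mutant, was weak, with signals of 27.4, 32.4 and 26.2 in MADS29OX leaves, against 24.6, 20.0 and 34.1 in WT leaves. Here the WT samples spread more widely than the MADS29OX samples, and the log2 fold change was 0.16 (95% interval -0.36 to 0.68, adjusted p = 0.621 from limma). ORR3 (LOC4331008, also RR23) had signals of 63.8, 58.4 and 52.9 in MADS29OX leaves, against 60.2, 65.1 and 51.0 in WT leaves. The ranges of ORR3 nearly coincided, with a log2 fold change of -0.01 (95% interval -0.32 to 0.30, adjusted p = 0.973 from limma). The intervals of ORR1 and ORR3 exclude a change of 2-fold, as does that of ORR2, the widest of these 3.

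An exact permutation test (2-sided) of the log2 signals gave p = 0.1 for each of HK4, HK5, AHP2 and ORR4, which is as low as 3 arrays against 3 can go. The same exact permutation test gave p = 0.4 for HK3, 1 for AHP1, 0.6 for ORR1, 0.5 for ORR2 and 1 for ORR3.

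The difference in response between genes of the same step was tested directly, as the log2 ratio of 2 genes within each array. All 10 pairs within a step were compared, and in 7 of them the ratios of the MADS29OX arrays separated from those of the WT arrays. The share of separated ratios over other gene pairs was not computed. Among single genes, 26.5% of all tested genes separated downwards and 23.6% upwards. Each of these 7 pairs holds HK4, HK5, AHP2 or ORR4, whose own signals separated, so the pairs are not independent. The exact permutation p (2-sided) of these 7 was 0.1, the smallest possible, and 0.143 after Benjamini-Hochberg adjustment over the 10 pairs. The log2 fold change of HK5 minus that of HK3 was -0.96, that of HK5 minus that of HK4 was -0.31, and that of HK4 minus that of HK3 was -0.65. In the phosphotransfer pair the log2 fold change of AHP2 minus that of AHP1 was -0.75. For ORR4 the difference in log2 fold change was -0.89 from ORR1, -0.98 from ORR2 and -0.82 from ORR3, each time towards a lower level of ORR4 in MADS29OX leaves. The ratios overlapped between the groups in the 3 pairs among ORR1, ORR2 and ORR3, with exact permutation p-values of 0.9 (ORR2 and ORR1), 0.6 (ORR3 and ORR1) and 0.6 (ORR3 and ORR2). With 3 arrays against 3 no pair can reach a p of 0.05.

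The spread between replicates was wider in MADS29OX leaves for 6 of the 9 genes, as it was for 83.9% of all tested genes. The median SD of the log2 signal was 0.215 in MADS29OX leaves and 0.0581 in WT leaves over the 9 genes, against 0.233 and 0.0788 over all tested genes. Among the MADS29OX arrays, HK4, HK5, AHP2, ORR2 and ORR3 were lowest in replicate 3, in AHP2 by a very small margin. HK3, AHP1, ORR1 and ORR4 were lowest in replicate 2. The share of all tested genes that were lowest in each array was not computed. MADS29OX replicate 1 was the highest of the 3 MADS29OX arrays in 6 of the 9 genes, and in 48.1% of all tested genes. MADS29OX replicate 2 was the highest in 3, against 31.8% of all tested genes, and MADS29OX replicate 3 in 0, against 20.1%.

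**Figure D3:**
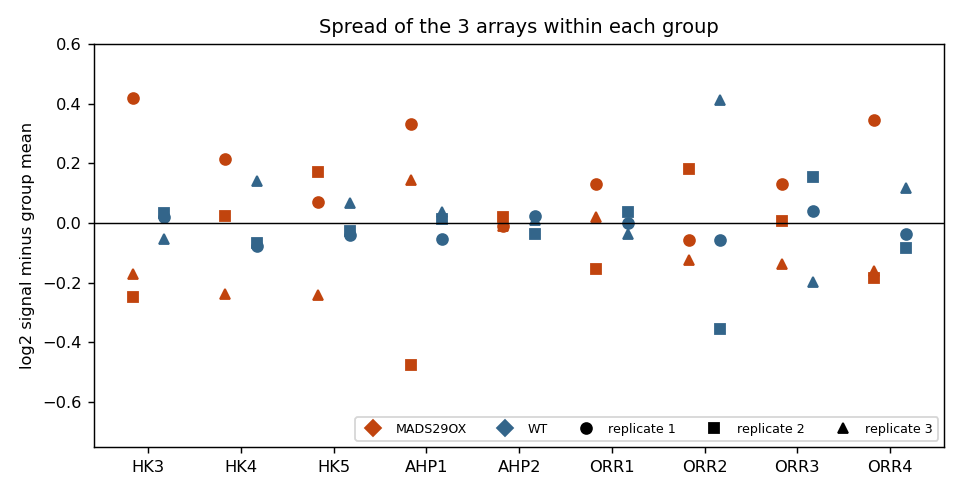
Deviation of each sample's log2 signal from the mean of its own group, for the 9 genes, with colour for MADS29OX and WT and symbol shape for the replicate. MADS29OX replicate 1 lies highest among the MADS29OX points in 6 genes, and the points of AHP2 lie closest to 0.

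Because HK5 was the only gene called, its pattern was set beside those of the 1555 tested genes that carry a gene name. Pearson's r of the log2 signals over the 6 arrays exceeded 0.95 for 131 of them, and with 2 groups of 3 arrays such a correlation mostly reflects the difference between the groups. The closest were CCA1, a Myb-like gene of the circadian clock (r = 0.999, log2 fold change -1.66), SAT5, named as a serine acetyltransferase (r = 0.999, log2 fold change -1.09) and actin-6 (r = 0.998, log2 fold change -0.996).

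**Figure D4:**
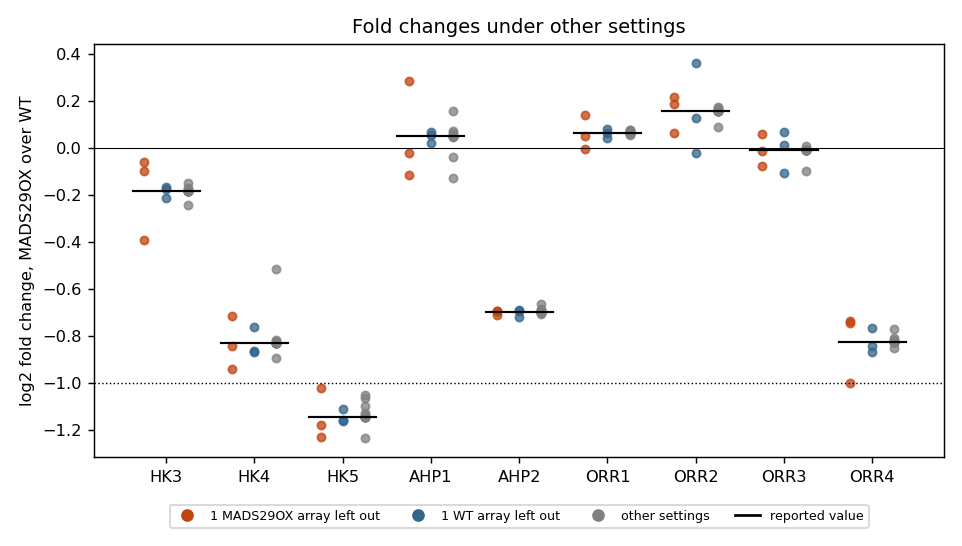
Log2 fold change (MADS29OX over WT) of the 9 genes with each MADS29OX array left out, each WT array left out, and under the other processing settings, beside the reported value as a black line; the dotted line marks 2-fold. HK5 stayed below -1 throughout (-1.23 to -1.02) and AHP2 moved between -0.72 and -0.66, whereas AHP1, ORR1, ORR2 and ORR3 had values on both sides of 0. The settings for the fold limit, filter, moderation, replicate block and weights by group repeat the reported value by construction, as does removing the floor.

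The other cytokinin genes were taken from lists of type-A regulators, further receptors, phosphotransfer proteins and type-B regulators, and genes of activation and breakdown of the hormone. The gene table held 35 of them, 22 had a probe set and 11 were above the floor on at least 1 array, with a median log2 fold change of -0.19. Of these 11, 2 were called higher and 1 was called lower. PHP5, which was listed with the phosphotransfer proteins, and the receptor-like kinase CHARK lay at the floor on every array. So did RR33, listed with the type-B regulators but also carrying a type-A synonym. Besides the 9 genes described above, the phosphorelay was thus represented by 4 type-A regulators.

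Type-A regulators dampen the relay, and the 2 genes called higher were both of this class. RR9 had signals of 169, 132 and 46.2 in MADS29OX leaves, against 21.1, 19.5 and 26.3 in WT leaves. Its groups did not overlap, and the level was 4.58-fold higher in MADS29OX leaves (log2 fold change 2.19 with standard error 0.49, and limma's adjusted p = 0.0239), although RR9 and its near-identical copy RR10 may share this signal. RR6 had signals of 108, 108 and 51.3 in MADS29OX leaves, against 39.8, 35.9 and 40.0 in WT leaves, a 2.19-fold higher level (log2 fold change 1.13 with standard error 0.30, and limma's adjusted p = 0.0432). In both, MADS29OX replicate 3 was the lowest of its group. For RR4 the log2 fold change was 0.72, with limma's adjusted p at 0.127, and for RR2 it was -0.08, and neither passed the test. The 2 type-A calls were not stable: without WT replicate 1, 2 or 3 the number of pathway genes called higher was 0 each time, and it was 1 without MADS29OX replicate 1 or 2.

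LOG enzymes release active cytokinin from its nucleotide form, and 6 of the 8 with a probe set were tested. LOGL9 was called lower, with signals of 16.2, 12.6 and 28.4 in MADS29OX leaves, against 60.1, 49.5 and 58.6 in WT leaves (log2 fold change -1.52, standard error 0.25, adjusted p = 0.00833 from limma). MADS29OX replicate 2 lay under the floor, so this log2 fold change is shrunk. LOGL1 was lower by less than 2-fold (log2 fold change -0.58, adjusted p = 0.0276 from limma), while LOGL7 at -0.89 had an adjusted p of 0.133 in limma. CKX enzymes break cytokinins down, and only CKX11 of the 5 with a probe set was above the floor, at a log2 fold change of -0.39 with limma's adjusted p at 0.218. The number of pathway genes called lower was 2 without MADS29OX replicate 2.

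**Figure D5:**
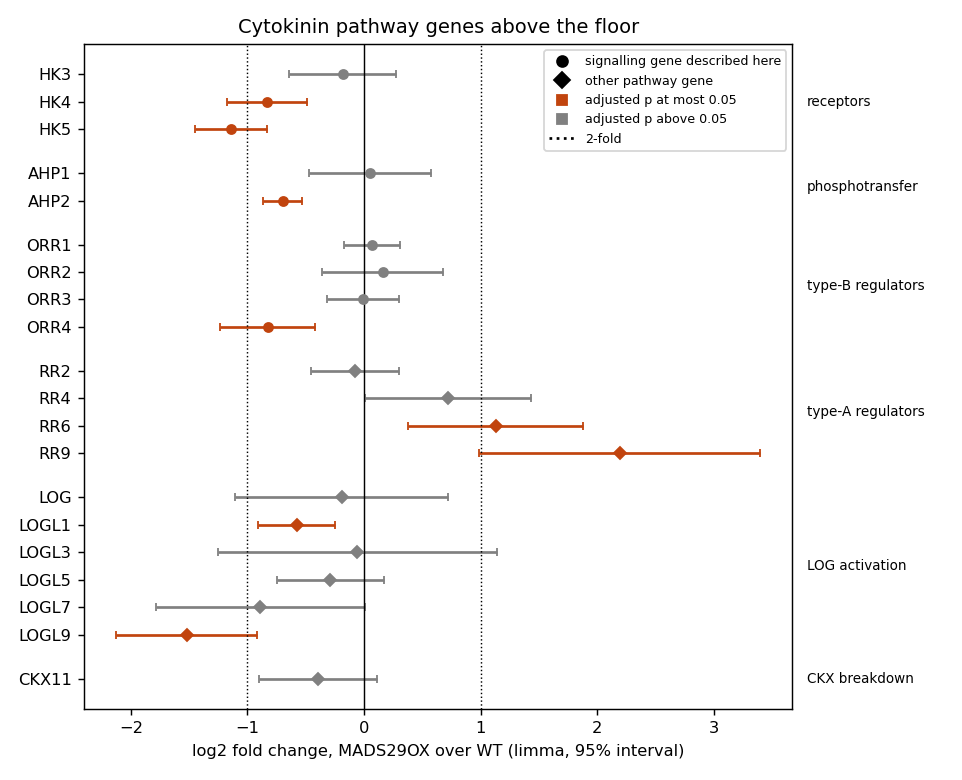
Log2 fold change (MADS29OX over WT) with 95% interval from limma for the 9 signalling genes (circles) and the 11 other cytokinin pathway genes above the floor (diamonds), grouped by role, coloured where the adjusted p was at most 0.05, with dotted lines at 2-fold. RR9 and RR6 lie past the upper line at 2.19 and 1.13, and HK5 and LOGL9 lie past the lower one at -1.14 and -1.52.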

How the data were processed

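The deposited values are linear intensities of 57381 probe sets on each array, and the 123 controls among them were left out. How the authors corrected, normalized and summarised them is not given in the sources used, nor is the test behind their 2-fold and 0.05 thresholds. Array medians were 5.95 to 6.00, so no scaling was added. A floor of 16 was applied before taking log2, which shrinks fold changes of weak genes. The 14238 probe sets above 16 on at least 1 array were tested in limma 3.58.1 (lmFit, eBayes; R 4.3.3), with group as the only term and Benjamini-Hochberg adjustment over all of them, and 43020 at the floor were left out.

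Probe sets were named by the platform annotation (1 gene for 22436, several for 95), and symbols and synonyms by a gene table of assembly ASM3414082v1. The array's build is not named, so no coordinates are given. A gene took its brightest probe set by the mean of 6 arrays, and levels of different probe sets were not compared. The text names all 9 genes, OsMADS29, the 3 named genes most like a called gene, and the called genes of the pathway lists. RR2, RR4, RR33, CHARK, PHP5, LOGL1, LOGL7, CKX11 and the copy RR10 were named after their values were seen. So were the markers KN1, FON1, CAB2R, RCABP69, PSAG, MADS16, MADS18, SUT1, SUS1 and SWEET14. The genes and lists were chosen with earlier results of these data known. No list of synthesis, glucosylation or transport genes matched a symbol in the table.

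Alternatives covered the floor, filter, normalization, weights, moderation, probe set choice, the replicate number as a block and each array left out. The fit was tested on simulated data. The number of arrays limits the precision.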

Additional observations from a re-analysis of the deposited data

How the results depend on the processing

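The direction of HK3, HK4, HK5, AHP2 and ORR4 held in all alternatives that tested them, and 0 of the 9 genes were called higher in any of the 20. Several alternatives could not move these log2 fold changes: the fold limit, filter, moderation, replicate block and weights by group, and removing the floor. In those only the adjusted p or the call could change, so they are no test of the direction. Without the fold limit HK4 (-0.83), AHP2 (-0.70) and ORR4 (-0.82) joined HK5, giving 4 lower genes, 2 lower pathway genes, and 1148 higher and 1519 lower genes in all, against 507 and 505. With log2 of the value plus 16, 0 pathway genes were called in either direction and 191 higher and 240.0 lower genes were called in all. When no filter was applied, HK5 kept -1.14 with an adjusted p of 0.0538 in limma, 0 of the 9 genes and 0 pathway genes were called in either direction, and 145 higher and 207 lower genes were called in all; the cause was not tested. ORR4 missed the adjusted p in 6 of 20 alternatives and HK4 in 2 of 19. AHP2 passed it in all 20, at 0.00131 to 0.0239 in limma.

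Near 0, signs turned. ORR3 was 0.0084 after median centring. AHP1 was -0.0365 with the mean of its probe sets and -0.1243 without probe sets that can hybridize to several transcripts. With 1 array left out, AHP1 ran from -0.1146 to 0.2886, ORR1 from -0.0015 to 0.1413, ORR2 from -0.0202 to 0.3647 and ORR3 from -0.1058 to 0.0705, while pathway genes called higher numbered 0 to 2 and lower 1 to 2. With array weights 1 pathway gene was called higher and 2 lower, and with no moderation 0 were called higher.

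Over all tested probe sets, same-numbered samples did not deviate together (r = 0.034, -0.045 and -0.127). Such a correlation cannot show whether they share a batch that affects some genes, and the labels name no pairing. With the replicate block HK5 was -1.14 (adjusted p = 0.0190 in limma), 465 higher and 481 lower genes were called in all, and 0 pathway genes were called higher. Weights by group were added after the data were seen. Leaving out an array leaves 2 in its group. Signals near the floor, as of HK4 and ORR2, limit what can be detected.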
